A study of Mus musculus with 2 samples.

Results

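A set of 10 lipid-handling genes of the Trem2 type were followed across macrophage states and the other cells of mouse liver metastases. They were the rows of Trem2, Apoe, Gpnmb, Fabp5, Lpl, Abca1, Abcg1, Lgals3, Cd9 and Cd63, chosen by symbol, 10 of the 56941 features in both libraries. The question was where these genes were expressed and how their levels compared when the injected tumour cells carried a hairpin against SLAMF3. Ctrl lesions came from MC38-LM3b-shScramble cells and KD lesions from MC38-LM3b-shSLAMF3 cells. MC38-LM3b is a line selected in mice from MC38 colon carcinoma cells for its capacity to colonize the liver, and both groups shared this line, its GFP and luciferase reporters and a stable hairpin. The hairpin was in the tumour cells alone, so the macrophages described here were host cells that did not carry it. Each library pooled lesions of 3 C57BL/6 mice, 6 to 8 weeks old, collected 2 weeks after injection into the spleen, and the cells were enriched for CD45 before droplet-based 3′ sequencing.

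TREM2 is a lipid-sensing receptor of macrophages and microglia that signals through the adaptor DAP12 (Tyrobp). Macrophages that take up lipid from dead cells, myelin or lipoproteins are known to express it together with genes that carry, hydrolyse and export lipid, and such cells are found in atherosclerotic plaques, fatty liver, obese fat and tumours. Cholesterol loading acts on the liver X receptors, which induce Abca1, Abcg1 and Apoe, while PU.1 is the transcription factor that sets the macrophage lineage.

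The upstream sequences of 4 members are shown because they carry, or lack, letters related to these factors. RefSeq (GRCm38.p6) gave windows of 300 bases, from 250 before to 50 after the transcription start, for 7 of the 10 members, in 9 windows. Abcg1, Fabp5 and Lpl had no entry. The 250 bases before the start are printed 5′ to 3′ on the gene's own strand, and capitals mark letters matched by any of the motifs searched.
Trem2 (chr17:48346151-48346400, plus strand): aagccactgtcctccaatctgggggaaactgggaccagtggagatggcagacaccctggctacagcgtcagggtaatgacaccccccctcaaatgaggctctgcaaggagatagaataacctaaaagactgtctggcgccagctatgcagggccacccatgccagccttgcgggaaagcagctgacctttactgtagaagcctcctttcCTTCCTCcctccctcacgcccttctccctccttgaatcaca
Abca1 (chr4:53159896-53160145, minus strand): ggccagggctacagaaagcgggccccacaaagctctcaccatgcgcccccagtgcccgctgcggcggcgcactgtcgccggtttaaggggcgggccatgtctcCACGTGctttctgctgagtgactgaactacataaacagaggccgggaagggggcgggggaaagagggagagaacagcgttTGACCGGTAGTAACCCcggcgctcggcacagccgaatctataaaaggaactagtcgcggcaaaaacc
Apoe, most upstream of its 3 windows (chr7:19699189-19699438, minus strand): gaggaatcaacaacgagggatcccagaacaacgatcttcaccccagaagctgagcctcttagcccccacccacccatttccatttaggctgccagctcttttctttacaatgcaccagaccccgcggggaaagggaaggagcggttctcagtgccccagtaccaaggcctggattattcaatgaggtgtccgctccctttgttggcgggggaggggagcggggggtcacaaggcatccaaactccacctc
Gpnmb (chr6:49036268-49036517, plus strand): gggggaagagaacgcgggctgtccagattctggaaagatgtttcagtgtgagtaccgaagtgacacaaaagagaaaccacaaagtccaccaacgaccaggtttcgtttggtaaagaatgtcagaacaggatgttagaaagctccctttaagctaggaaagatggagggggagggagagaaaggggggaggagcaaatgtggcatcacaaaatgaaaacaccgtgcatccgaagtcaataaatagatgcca
Both strands were searched for 4 motifs, none of which overlapped another in these windows. The PU.1 core GAGGAAG was found in Trem2, with its first base at position -41 on the other strand, and in Cd63 at -60. It occurs in 13.6% of the 32851 windows of the table. A DR4 repeat of the kind bound by liver X receptors, written as 2 half-sites NGGTNA with NNNN between them, was found in Abca1 at -67 and occurs in 0.718% of windows. Abca1 also held the E-box CACGTG at -147 (7.15% of windows), and Cd9 the letters CATGTG, the core of the M-box bound by MITF-family factors, at -38 (14.2% of windows). No match was found in the windows of Apoe, Gpnmb and Lgals3, which says only that these letters are not in these windows.

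The libraries held 10416 Ctrl and 10943 KD barcodes, of which 9814 and 10185 passed the cell filter, with medians of 5411.5 and 4989 UMIs. A UMI is a counted transcript molecule, and levels are given as UMIs per 1000000 of all UMIs in a group of cells of a library (CPM). With 1 library per group no test between the groups was possible, so the intervals given are exact 95% intervals that cover counting error only and not the spread between mice. A gene was counted as higher or lower in KD when its CPM differed at least 1.5-fold. Ly9, the gene of SLAMF3, had 12 Ctrl and 7 KD UMIs in the tumour or fibroblast-like cells, too few to check the knockdown, which lies in cells that the CD45 selection removes. The libraries shared 27 cell barcodes. Macrophages, with monocytes and without Kupffer cells, numbered 4097 in Ctrl and 2941 in KD, with medians of 5580 and 7510 UMIs. Their defining markers were well above the other cells (Csf1r 197 against 12.0 CPM in Ctrl and 227 against 28.9 in KD), although Ly6c2 (228 against 210 and 156 against 138) and, in KD, Cd14 (730 against 687) were not.

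Macrophages held the highest level of Trem2 of all cell classes in both libraries. Its level was 111 CPM in Ctrl macrophages (interval 107 to 115) and 159 in KD (153 to 164). The resident Kupffer-like cells came next among the named classes with 54.3 (34.4 to 81.5) and 34.99 (21.7 to 53.5), and their intervals did not reach those of the macrophages. Clusters 15 and 16, left unnamed because fewer than 3 markers of any class passed, had 60.2 and 57.1 CPM in Ctrl and 114 and 127 in KD. In the remaining named classes Trem2 lay between 0 and 6.97 CPM in Ctrl and between 2.63 and 23.6 in KD, where the highest value, in plasmacytoid dendritic cells, rested on 11 UMIs. Trem2 was 19.7 times (17.1 to 22.7) the level of all other filtered cells in Ctrl macrophages and 13.7 times (12.4 to 15.2) in KD.

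Apoe, the apolipoprotein that carries lipid out of macrophages, and Lpl, the lipase that releases fatty acids from triglycerides, were also macrophage genes. Their highest level, however, was in the Kupffer-like cells. Apoe stood at 1620 and 4104 CPM in Ctrl and KD macrophages, against 7473 and 8856 in Kupffer-like cells. Among the named classes endothelial-like cells followed with 1086 and 1453, while in KD the unnamed clusters 15 and 16 had 2843 and 1603. Lpl was at 70.4 and 141 CPM in macrophages and at 555 and 633 in Kupffer-like cells, and no other named class was above 24.4 in Ctrl or 43.4 in KD. The cholesterol exporters Abca1 and Abcg1 had the same leading class. Abca1 was at 550 and 661 CPM in Kupffer-like cells, at 219 and 270 in endothelial-like cells and at 108 and 143 in macrophages. Abcg1 was at 194 and 233 CPM in Kupffer-like cells and at 66.5 and 91.8 in macrophages, whose interval overlapped those of granulocytes, B cells and plasmacytoid dendritic cells in Ctrl and of the last 2 in KD. The Kupffer-like class rests on 48 and 81 cells.

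The other members were shared more widely. Lgals3, which codes for the galactoside-binding lectin galectin-3, was highest among the named classes in macrophages (1274 and 1522 CPM), with conventional dendritic cells next in Ctrl (1166) and tumour or fibroblast-like cells next in KD (1191). Gpnmb, a lysosomal and membrane glycoprotein of lipid-laden macrophages, was low everywhere. Its 6.64 CPM in Ctrl macrophages (174 UMIs) overlapped the intervals of 6 other named classes, T cells and conventional dendritic cells not among them. Its 25.7 in KD macrophages (599 UMIs) lay below the 34.3 of plasmacytoid dendritic cells (16 UMIs), with overlapping intervals, and also overlapped that of Kupffer-like cells (7 UMIs). Fabp5, a carrier of fatty acids in the cytosol, was highest among the named classes in endothelial-like cells (342 and 510 CPM), then macrophages (270 and 312). In KD the unnamed cluster 16 had more, at 584. The tetraspanin Cd9 was highest in granulocytes (1824 and 1366 CPM against 192 and 300 in macrophages), and Cd63, the tetraspanin of late endosomes and lysosomes, in tumour or fibroblast-like cells (913 and 1281 against 65.9 and 120). Thus 5 of the 10 members, Trem2, Apoe, Gpnmb, Lpl and Lgals3, were at least 2-fold above the other cells in macrophages of both libraries, against 6.21% of the 13440 genes with at least 200 UMIs. Reads of Fabp5, Cd9 and Cd63 may be split with the near-identical copies Fabp5l2, Cd9-ps and Cd63-ps that the files also list, which makes their levels less certain.

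**Figure D1:**
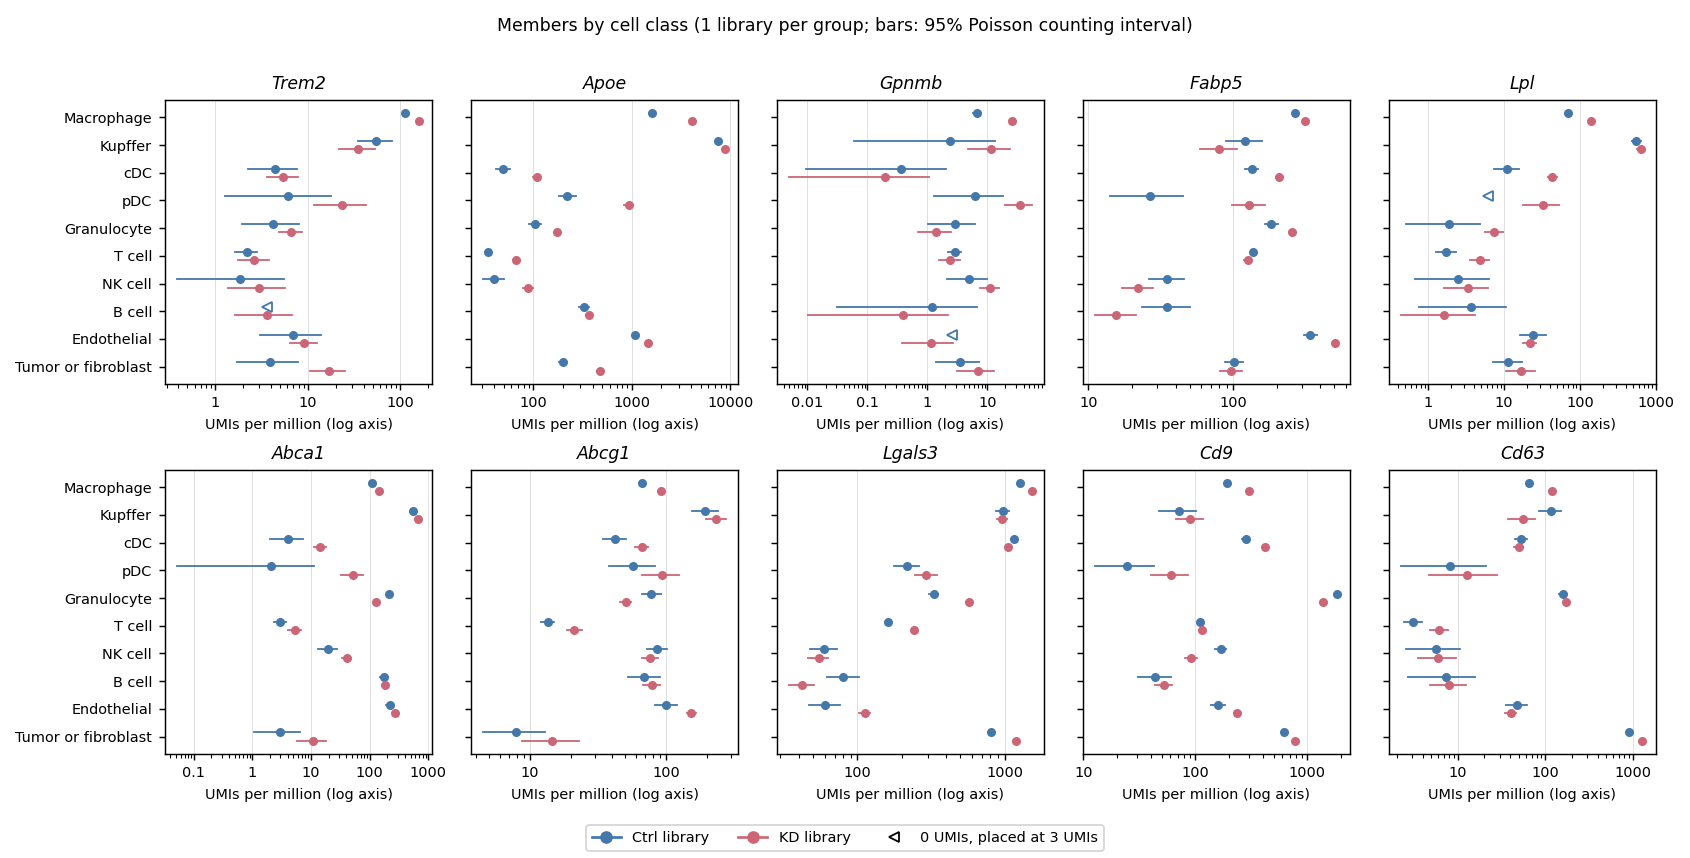
CPM (log axis) of each member in 10 cell classes, Ctrl in blue and KD in red, as points with 95% Poisson counting intervals; open triangles mark 0 UMIs, placed at 3 UMIs. Trem2 and Lgals3 peak in macrophages, Apoe, Lpl, Abca1 and Abcg1 in Kupffer-like cells, Cd9 in granulocytes (1824 and 1366 CPM) and Cd63 in tumour or fibroblast-like cells.

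Members were seen in many more macrophages than lymphocytes once each cell was thinned to 1500 UMIs. The share of macrophages with a Trem2 UMI was 12.8% in Ctrl (488 of 3805) and 17.4% in KD (494 of 2832), and without thinning 34.9% and 50.9%. T cells, which should lack Trem2, gave 0.275% and 0.594%, at medians of 7112 and 5807 UMIs. For Apoe the thinned share was 55.4% and 78.0% of macrophages against 4.58% and 9.499% of T cells. For Lpl it was 6.04% and 12.99% against 0.344% and 0.264%. Fabp5, Lgals3 and Cd9 are different, because T cells gave 12.8%, 21.2% and 14.3% in Ctrl and macrophages 16.3%, 68.6% and 18.2%. Gpnmb was found in 0.972% of Ctrl and 3.07% of KD macrophages, and T cells gave 0.482% and 0.198%.

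The low levels of Apoe and Trem2 in T cells were close in proportion to a macrophage transcript to those in macrophages of the same library. Per 100 UMIs of C1qb, a complement gene made by macrophages, Apoe had 58.7 UMIs in Ctrl macrophages, 59.3 in T cells and 66.0 in natural killer cells. In KD the values were 164, 181 and 228. B cells were far from this, with 338 in Ctrl and 664 in KD, on 80 and 138 C1qb UMIs. Trem2 had 4.03, 3.77 and 3.09 per 100 in Ctrl and 6.32, 7.13 and 7.76 in KD. The T cell levels of Apoe (34.3 and 66.7 CPM) and Trem2 (2.19 and 2.63) are not read as expression, and the part of free RNA or doublets in them was not tested. Fabp5 went far from this pattern with 237 per 100 C1qb UMIs in Ctrl T cells against 9.77 in macrophages, and so did Cd9 (191 against 6.97), Lgals3 (279 against 46.2), Abcg1 (23.3 against 2.41) and Gpnmb (4.96 against 0.241). Hepatocyte markers, another possible source of Apoe in liver, summed to 6.80 CPM in Ctrl and 3.51 in KD macrophages.

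**Figure D2:**
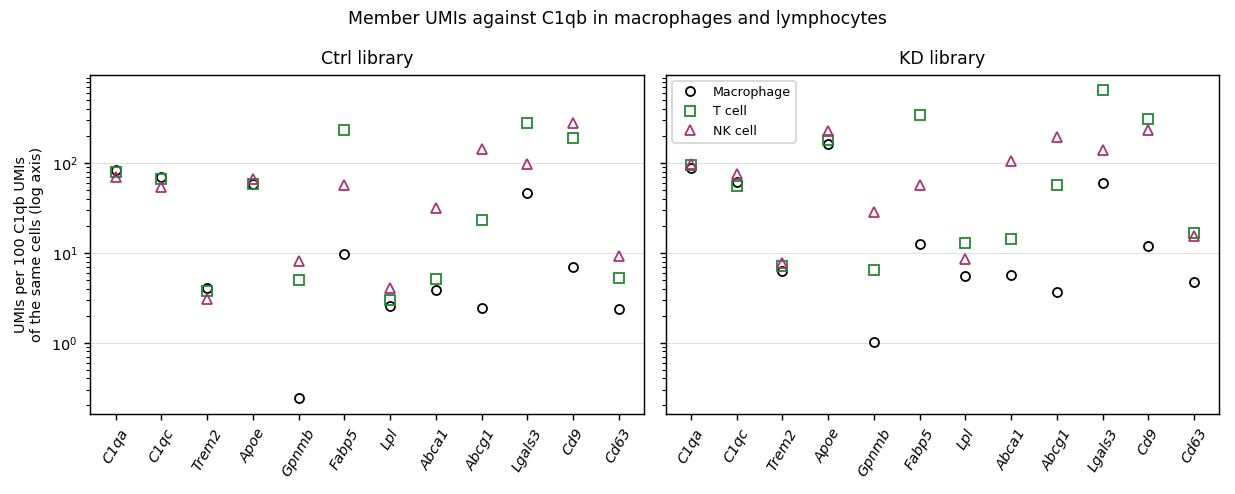
UMIs of each member, C1qa and C1qc per 100 C1qb UMIs of the same cells (log axis) in macrophages, T cells and natural killer cells of the Ctrl (left) and KD (right) library. The symbols lie close together for C1qa, Trem2 and Apoe, whereas Fabp5, Cd9 and Lgals3 lie far higher in lymphocytes, as with 237 against 9.77 for Fabp5 in Ctrl T cells.

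All 10 members had a higher level in KD than in Ctrl macrophages, with intervals that lay above 0. The receptor, Trem2, went from 111 to 159 CPM, a log2 ratio of KD over Ctrl of 0.51 (0.44 to 0.58). Apoe went from 1620 to 4104, a log2 ratio of 1.34 (1.32 to 1.36), with 42420 and 95829 UMIs behind the levels. It was the member with the most UMIs of all. Gpnmb had the largest ratio, 1.95 (1.70 to 2.20), from 6.64 to 25.7 CPM. Lpl went from 70.4 to 141 CPM, at 1.00 (0.92 to 1.08). Both tetraspanins were higher in KD, Cd63 by 0.87 (0.78 to 0.95) from 65.9 to 120 CPM and Cd9 by 0.64 (0.59 to 0.70) from 192 to 300 CPM.

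The exporters and the most widely shared members differed less between the libraries. Abcg1, which passes cholesterol to high-density lipoprotein, had a log2 ratio of 0.47 (0.37 to 0.56), and Abca1, which loads lipid-free apolipoproteins, of 0.42 (0.34 to 0.49). Lgals3 went from 1274 to 1522 CPM (0.26, 0.24 to 0.28) and Fabp5 from 270 to 312 (0.21, 0.17 to 0.26). Thus 5 of the 10 members, Apoe, Gpnmb, Lpl, Cd9 and Cd63, were at least 1.5-fold higher in KD macrophages, against 4.52% of the 10010 genes with at least 200 UMIs there. None was at least 1.5-fold lower, against 6.94% of genes. The median log2 ratio was 0.58 over the members and -0.02 over the 10010 genes. All 10 members had 200 UMIs in macrophages. Because the members were chosen with earlier results of these data known, the shares of all genes beside their counts are a description and not independent support.

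These ratios mix levels within macrophage states with the makeup of states, which differed between the libraries. Interferon TAM-like cells made up 29.5% of Ctrl and 7.24% of KD macrophages, C1qc+ TAM-like cells 15.0% and 36.0%, and Ltc4s+ macrophage-like cells 0.220% (9 cells) and 11.5% (338 cells). When the sub-clusters were given the same weights in both libraries, 3 members stayed at least 1.5-fold higher, namely Gpnmb at 1.495, Apoe at 1.00 and Lpl at 0.65, against 2.71% of genes. Fabp5 then stood at -0.055, and Trem2 at 0.38. Without the Ltc4s+ macrophage-like cells 4 members were at least 1.5-fold higher, as Cd9 stood at 0.57. The share of all genes lay between 2.71% and 7.98% over all the alternative settings, this one among them. Without these cells the median of the members was 0.47 and the log2 ratio of Lpl 0.75. Granulocyte markers also moved with the groups, since their sum was 210 CPM in Ctrl and 1101 in KD macrophages (S100a8 69.3 and 458). Kupffer cell markers summed to 14.8 CPM in Ctrl and 28.0 in KD macrophages. In the Ltc4s+ macrophage-like cells they summed to 1621 CPM in Ctrl, on 9 cells, and to 119 in KD. The equal mix gave these 9 Ctrl cells the same weight as the 338 KD cells. In granulocytes themselves Trem2 lay at 6.59, Lpl at 7.48 and Cd9 at 1366 CPM in KD. The part of granulocyte or Kupffer cell RNA in the ratios of the members was not tested.

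**Figure D3:**
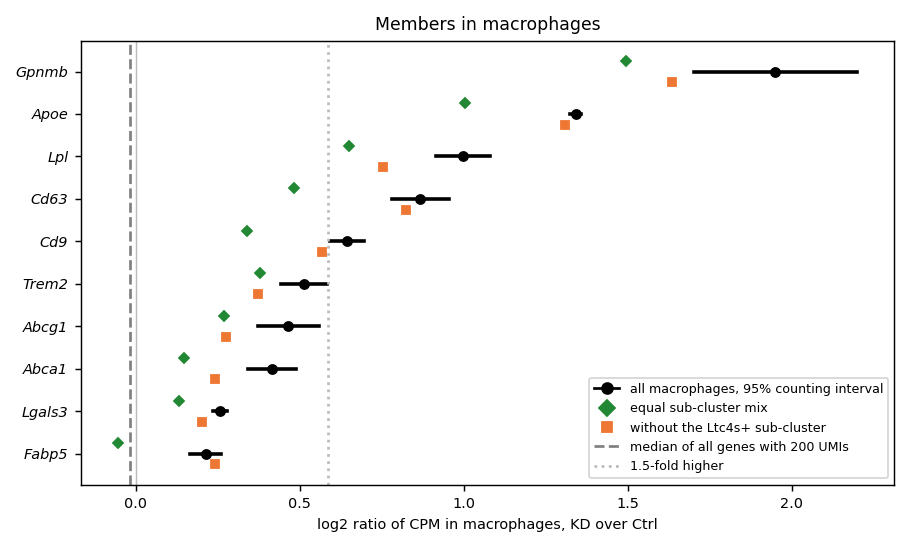
Log2 ratio of CPM in macrophages, KD over Ctrl, of the 10 members, as black points with 95% counting intervals, with green diamonds for an equal mix of sub-clusters and orange squares without the Ltc4s+ macrophage-like cells. All black points lie right of the median of all genes (-0.02, dashed), and Gpnmb, Apoe and Lpl stay beyond the 1.5-fold line (dotted) in each version, while Fabp5 crosses 0 with the equal mix.

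The members were spread over the macrophage states in different ways. Levels were ranked over the sub-clusters with at least 50 cells in the library. In Ctrl the C1qc+ TAM-like cells held the highest Apoe (2955 CPM), Fabp5 (550), Lpl (129) and Cd63 (169). They were clustered with the members left out of the variable genes, and their Trem2 level of 147 CPM overlapped that of Interferon TAM-like cells (137). The 9 Ltc4s+ macrophage-like cells of Ctrl, outside this ranking, had Apoe at 4205 CPM and Cd9 at 581. The Vcan+ monocyte-like cells were at the other end for Lpl (6.08) and Cd63 (4.21). They nevertheless had the highest levels of Gpnmb (24.3) and Lgals3 (1743). Inflammatory TAM-like cells, led by Il1a, Cxcl1 and Il6, led for Abca1 (234 CPM) and for Cd9 (296), the latter overlapping an unnamed sub-cluster. In these cells Trem2 was at 82.4 CPM, so the exporter and the receptor peaked in different states.

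In KD the order was not the same. Ltc4s+ macrophage-like cells, a state with Pf4, Folr2 and Mrc1 that was almost absent from Ctrl, had the highest level of Trem2 (260 CPM), Gpnmb (60.7), Lpl (296) and Abcg1 (173), the last with an interval overlapping an unnamed sub-cluster. Inflammatory TAM-like cells again led for Abca1 (391) and Cd9 (501, overlapping an unnamed sub-cluster), and Vcan+ monocyte-like cells for Lgals3 (2244). Apoe was at 5058 CPM in C1qc+ TAM-like cells, 4873 in Ltc4s+ macrophage-like cells and 4512 in Inflammatory TAM-like cells. It was higher, at 5928, in an unnamed sub-cluster of 80 KD cells whose leading genes included Gzma and S100a9, genes of lymphocytes and granulocytes. That sub-cluster was also highest for Fabp5 (480) and Cd63 (213), and its granulocyte markers summed to 6617 CPM.

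**Figure D4:**
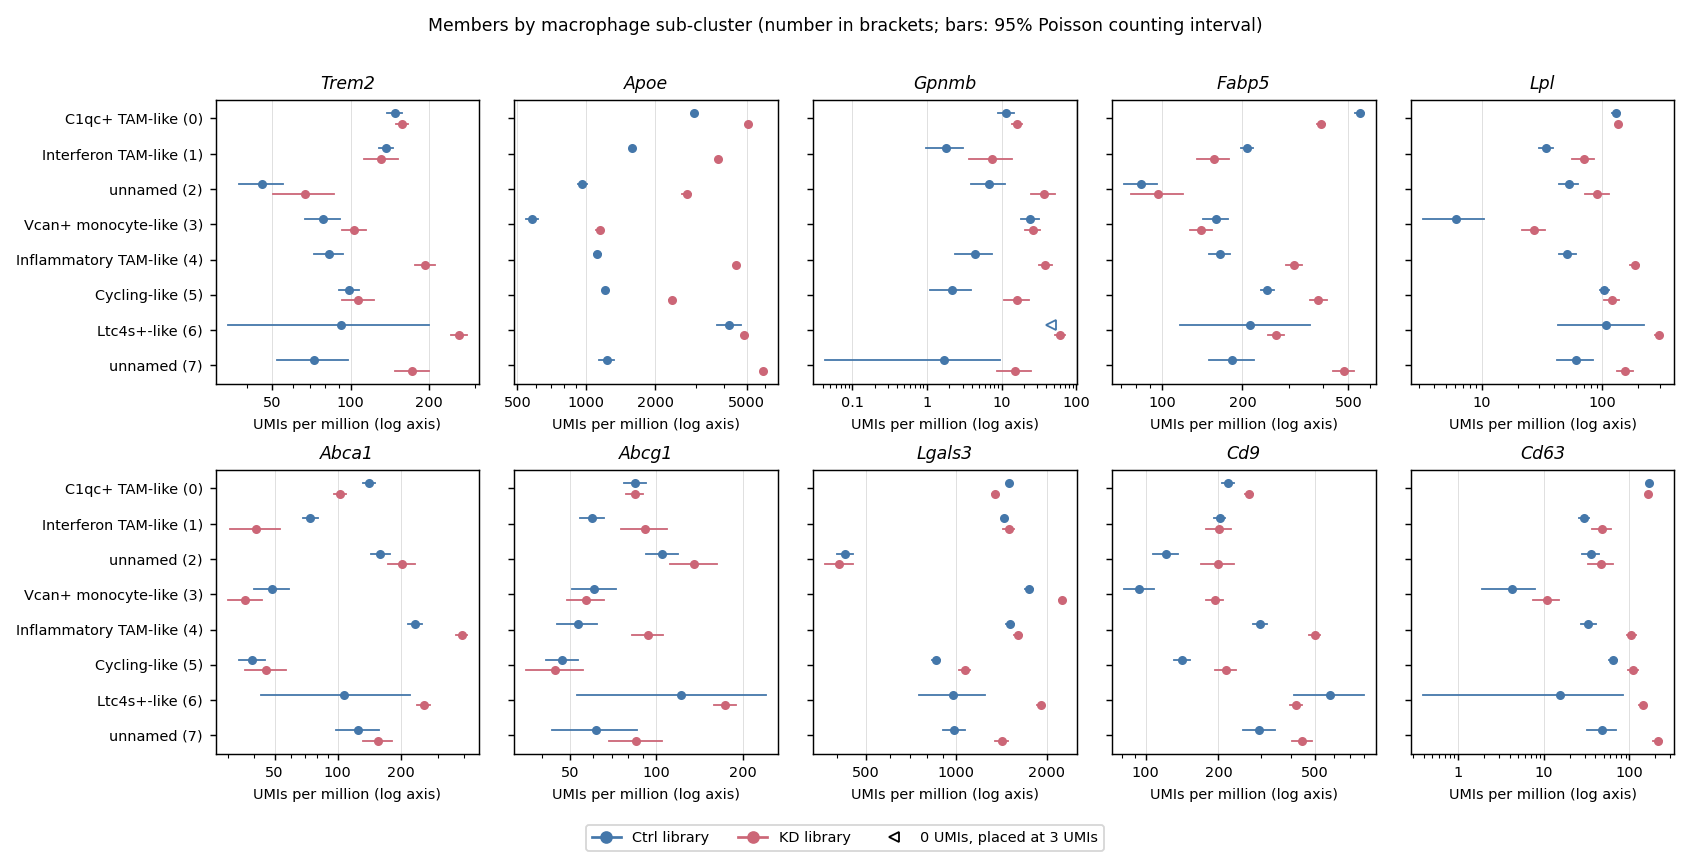
CPM (log axis) of each member in 8 macrophage sub-clusters, Ctrl in blue and KD in red, with 95% Poisson counting intervals; the sub-cluster number is in brackets, and the open triangle marks 0 UMIs, placed at 3 UMIs. The Ltc4s+ macrophage-like cells of KD (sub-cluster 6) stand highest for Trem2, Gpnmb, Lpl and Abcg1 (the last overlapping sub-cluster 2), and their Ctrl points rest on 9 cells.

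Of the 5 named states with at least 50 cells in each library, Inflammatory TAM-like cells (441 Ctrl and 302 KD cells) had the highest median log2 ratio of the members, 1.07, against 0.03 over all genes tested. Trem2 went from 82.4 to 193 CPM, a log2 ratio of 1.23 (1.00 to 1.45), and Apoe from 1116 to 4512, at 2.02 (1.96 to 2.07). Lpl went from 51.2 to 186 (1.86, 1.60 to 2.14) and Cd63 from 33.2 to 105 (1.66, 1.33 to 2.01). Gpnmb had 13 UMIs in Ctrl and 101 in KD (3.13, 2.29 to 4.09). The exporters were higher as well, Abcg1 by 0.81 (0.52 to 1.11) and Abca1 by 0.74 (0.60 to 0.88), and Fabp5 by 0.92 (0.76 to 1.09). In all, 9 of the 10 members were at least 1.5-fold higher, against 9.51% of the 3744 genes with 200 UMIs, and 0 were lower, against 7.43%. Of the 9 members with 200 UMIs 8 were higher. The exception was Lgals3, with 1507 and 1610 CPM (0.10, 0.03 to 0.16). Granulocyte markers in these cells summed to 103 CPM in Ctrl and 217 in KD, and Kupffer markers to 17.6 and 45.4.

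C1qc+ TAM-like cells (615 Ctrl and 1058 KD cells) differed little apart from Apoe. Apoe went from 2955 to 5058 CPM, at 0.78 (0.75 to 0.80), and was the only 1 of 10 members at least 1.5-fold higher there, against 2.84% of genes. None was 1.5-fold lower, against 4.97%. Trem2 was at 147 and 158 CPM (0.10, -0.03 to 0.22) and Lpl at 129 and 136 (0.07, -0.06 to 0.21), with intervals that held 0. Cd63 (169 and 163) and Abcg1 (84.5 and 84.1) also had intervals that held 0. Fabp5 was lower in KD, at 550 and 395 CPM (-0.48, -0.55 to -0.41), as was Abca1 at 141 and 102 (-0.46, -0.60 to -0.32). Both had the opposite sign in macrophages as a whole.

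In Interferon TAM-like cells (1209 Ctrl and 213 KD cells) 5 members were at least 1.5-fold higher in KD, against 2.36% of genes, and 1 was lower, against 6.98%, or 4 and 1 of the 9 with 200 UMIs. Apoe went from 1579 to 3764 CPM (1.25, 1.20 to 1.30) and Lpl from 34.2 to 70.0 (1.03, 0.67 to 1.38). The lower gene was Abca1, at 74.1 and 40.7 CPM (-0.87, -1.30 to -0.46). Trem2 stood at 137 and 131 (-0.06, -0.30 to 0.17) and did not differ beyond counting error. In Vcan+ monocyte-like cells (390 and 468 cells) 4 members were higher, against 3.33% of genes, and 0 lower, against 6.57%, and 2 of the 7 members with 200 UMIs were higher. The 4 were Lpl (13 and 85 UMIs), Cd63 (9 and 34 UMIs), Cd9 from 93.9 to 193 CPM and Apoe from 579 to 1143. Trem2 went from 78.0 to 103 CPM there, at 0.40 (0.13 to 0.68). The cycling macrophage-like cells (496 and 133 cells) had 5 members higher, against 4.06%, and 0 lower, against 6.98%, or 4 of the 9 with 200 UMIs, with Apoe at 1208 and 2357 CPM and Fabp5 at 248 and 386. Granulocyte markers in the cycling cells summed to 95.5 CPM in Ctrl and 4400 in KD, and their part was not tested. The number of members with 200 UMIs was 10 in C1qc+ TAM-like, 7 in Vcan+ monocyte-like and 9 in each of the other 3 states, where Gpnmb was below.

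Across the 7 sub-clusters with at least 50 cells in each library, Apoe, Gpnmb and Lpl had a log2 ratio above 0 in all 7. Trem2, Cd9 and Cd63 were above 0 in 6, Lgals3 in 5, and Fabp5, Abca1 and Abcg1 in 4. Thus 6 of the 10 members were above 0 in all but at most 1 sub-cluster, against 14.5% of genes. These counts take ratios of any size and not the 1.5-fold rule. Lpl had 0.07 in C1qc+ TAM-like and Gpnmb 0.10 in Vcan+ monocyte-like cells, with intervals that held 0. The log2 ratio of Apoe ranged from 0.78 to 2.27, and that of Abca1 from -0.87 to 0.74.

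**Figure D5:**
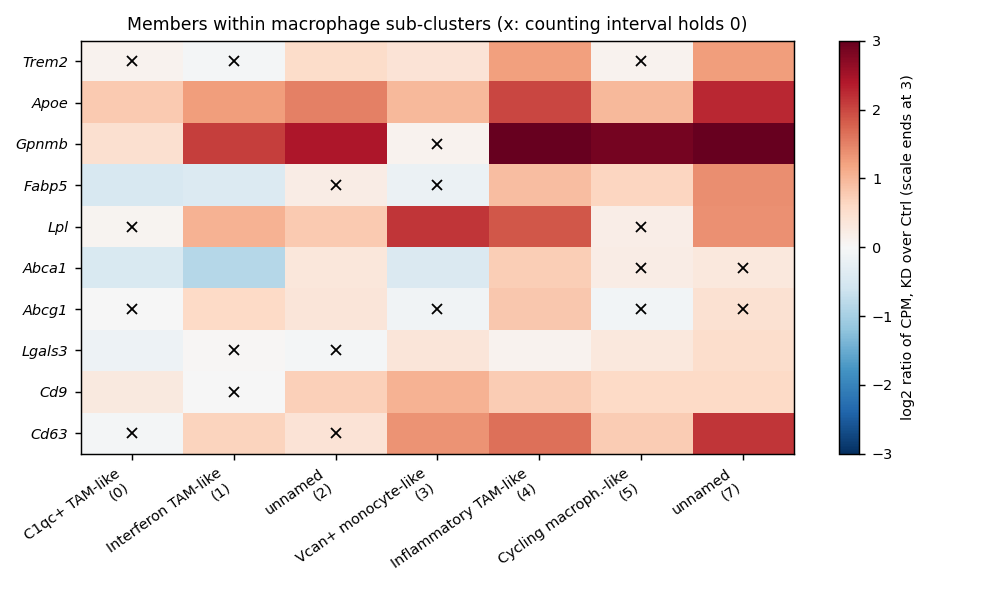
Log2 ratio of CPM, KD over Ctrl, of each member (rows) in the 7 macrophage sub-clusters with at least 50 cells in each library (columns, number in brackets), red for higher and blue for lower in KD; a cross marks a 95% counting interval that holds 0. Apoe, Gpnmb and Lpl are red throughout, the column of Inflammatory TAM-like cells is red for all 10 members, and Abca1 and Fabp5 are blue in C1qc+ TAM-like and Interferon TAM-like cells.

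Single cells held few of the members at once. At 1500 UMIs per cell, Ctrl macrophages had a UMI of 2.06 ± 1.25 members (SD over 3805 cells of 1 library) and KD macrophages of 2.72 ± 1.33 (2832 cells). No member was seen in 7.75% of Ctrl and 1.62% of KD macrophages, and 5 or more were seen in 3.60% and 9.82%. The mean was 3.52 in the Ltc4s+ macrophage-like cells of KD, and it was 2.18 and 3.21 in Inflammatory TAM-like and 2.71 and 2.81 in C1qc+ TAM-like cells. Kupffer-like cells had 3.05 and 3.33, granulocytes 1.99 and 2.12, and T cells 0.571 and 0.656.

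Macrophages with a Trem2 UMI more often held a UMI of some of the other members. In Ctrl macrophages Apoe was seen in 68.9% of the 488 cells with Trem2 (64.5 to 72.9) and in 53.5% of the 3317 without (51.7 to 55.2). Cd63 was seen in 9.84% (7.34 to 12.8) and 4.46% (3.78 to 5.22) of these cells. In KD the shares for Apoe were 83.4% of 494 cells and 76.8% of 2338, and for Lpl 16.6% (13.4 to 20.2) and 12.2% (10.9 to 13.6), the latter with intervals that overlap. Within C1qc+ TAM-like cells Apoe was seen in 87.8% with and 66.8% without Trem2 in Ctrl, and in 90.2% and 85.8% in KD, where the intervals overlap. Lpl went the other way there, with 7.32% and 11.6% in Ctrl and 8.25% and 12.8% in KD, also with overlapping intervals. Lpl and Abca1 in Ctrl were alike in cells with and without Trem2, at 6.35% and 5.999% for Lpl and 12.1% in both for Abca1. The few cells with Gpnmb stood out more for some members. Of 37 such cells in Ctrl, 56.8% held Fabp5 (39.5 to 72.9) against 15.9% of the others, and 24.3% held Cd63 against 4.96%. Of 87 in KD, 31.0% held Fabp5 against 17.6%, 24.1% Cd63 against 9.47% and 27.6% Abca1 against 14.6%. Trem2 was alike in KD, at 18.4% and 17.4%. In Ctrl, Abca1 (10.8% against 12.1%), Abcg1 (5.41% against 10.9%) and Cd9 (13.5% against 18.2%) went the other way, with overlapping intervals.

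Over the 15 sums of macrophage sub-clusters and libraries with at least 50 cells, the genes whose level was most like that of Trem2 were Tnfsf12 (Pearson r = 0.93), Rnase4 and Dcxr (0.91), Ccl6 and Lamp1 (0.89), Asah1, Cyb561d2, Glrx3 and Creg1 (0.88) and Ptov1 (0.87). Among the members Apoe was most like it (0.76) and Abca1 least (0.20). Lpl and Cd63 had the closest pair of patterns among members (0.94). Lgals3 was like Trem2 (0.67) and unlike others, with -0.20 for Abcg1, -0.16 for Abca1 and -0.08 for Lpl, and was most like Arpc5 (0.97) and Lyz2 (0.96). The nearest genes were Acp5 (0.94) and Tmem37 (0.94) for Apoe, Glul (0.93) and Fabp4 (0.91) for Gpnmb, Cebpzos (0.84) and Qdpr (0.83) for Fabp5, and Colgalt1 for Lpl (0.92) and for Cd63 (0.94). They were Gm56730 (0.90) and Jdp2 (0.88) for Abca1, Dlgap4 and Slc6a6 (both 0.87) for Abcg1, and Ncf1 (0.92) and Hilpda (0.89) for Cd9. The points share libraries and the makeup of sub-clusters, so these values are descriptions over genes that were screened for likeness.

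Other genes of the same pathways were compared in macrophages through 9 lists with 105 genes, of which 95 had 200 UMIs. Of these, 17 were at least 1.5-fold higher and 3 lower in KD, where 4.52% and 6.94% of all macrophage genes were, and the median log2 ratio was 0.11. The lists, like the members, were chosen with earlier results of these data known, so this is a description. The apolipoprotein and lipid transfer list had 3 of 5 genes higher and a median of 1.43. They were Pltp, the phospholipid transfer protein (17.1 and 58.5 CPM, 1.77), Abca9 (7.29 and 22.4, 1.62) and Apoc1 (2.25 and 6.08, 1.43), while Abca2 (0.03) and Abca7 (0.45) differed less. Of 9 lipid droplet genes 4 were higher, led by G0s2 (0.89), an inhibitor of triglyceride lipolysis that granulocytes also express, and the droplet coat Plin2 (229 and 358 CPM, 0.65). The triglyceride-forming enzyme Dgat1 was lower (27.0 and 17.1 CPM, -0.66), and the hormone-sensitive lipase Lipe had -0.42.

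Of 8 genes for fatty acid binding and activation 2 were higher and 1 lower. The adipocyte-type carrier Fabp4 went from 6.49 to 19.3 CPM (1.57) and Cpt1a, which takes fatty acids into mitochondria, from 26.3 to 41.5 (0.66). The acyl-CoA synthetase Acsl1 was lower, at 90.3 and 47.2 CPM (-0.94), and Acsl3 had -0.18. Of 9 sterol synthesis genes 0 were higher and 1 lower, with a median of -0.16. Squalene epoxidase, Sqle, went from 14.2 to 8.78 CPM (-0.69) and Fdps had -0.42, while Hmgcs1, the synthase at the head of the pathway, had 0.01.

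Of 10 TREM2 signalling genes 1 was higher, Ms4a4a (27.3 and 46.6 CPM, 0.77), and Adam10, a sheddase of TREM2, came next at 0.44. The adaptor Tyrobp had 1321 and 1283 CPM (-0.04), the kinase Syk 0.38, and Adam17 (-0.15) and Pik3cg (-0.14) were lowest. Of 11 lipid uptake genes 2 were higher, Marco (0.63), which is also a Kupffer cell marker, and the oxidized lipoprotein receptor Olr1 (0.59), while Cd68 (-0.03) and the scavenger receptor Msr1 (0.01) hardly differed. Of 9 genes of liver X receptor and PPAR regulation 1 was higher, the partner receptor Rxra (0.75), followed by Pparg (0.35). Of the liver X receptors, Nr1h2 was slightly lower (-0.17, -0.29 to -0.04) and Nr1h3 did not differ beyond counting error (-0.08, -0.22 to 0.06). Of 21 lysosomal genes 2 were higher, the protease Ctsd (258 and 411 CPM, 0.67) and Pld3 (0.66), and Gla (-0.29) was lowest. Of 13 further genes of lipid-associated states 2 were higher, Cd300lb (1.01) and Vat1 (0.80), while Lgals1 (-0.41) and Cd52 (-0.28) were lowest.

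In all other filtered cells summed, 7 of the 10 members were at least 1.5-fold higher in KD, against 15.5% of genes, and 0 lower, against 13.2%, with a median log2 ratio of 0.95 and all 10 intervals above 0. The makeup of these cells differed as well, with 815 Ctrl and 2309 KD granulocytes and 2940 and 1531 T cells. The single classes differed from each other. In granulocytes 4 members were at least 1.5-fold higher in KD, against 13.9% of genes, and 3 lower, against 14.3%. Of the 7 members with the 200 UMIs that the background genes have, 2 were higher and 2 lower. Abca1 was lower, at 217 and 130 CPM (-0.73, -0.89 to -0.57), and so was Abcg1, at 77.8 and 50.2 (-0.63, -0.90 to -0.36), whereas Lgals3 was higher, at 330 and 576 (0.80, 0.69 to 0.92). Gpnmb, the other lower member, had 6 and 11 UMIs. The granulocyte class joined several clusters, and the one led by Ngp, Camp and Ltf held 48 Ctrl and 692 KD cells. These ratios therefore mix levels with the makeup of the class, and the part of the makeup was not tested. Conventional dendritic cells had 6 members higher, against 3.14%, and 1 lower, against 3.62%, or 5 and 0 of the 7 with 200 UMIs. Lpl went from 11.002 to 43.4 CPM there (1.98, 1.43 to 2.58), Abca1 from 4.03 to 14.5 (1.84, 0.92 to 2.91) and Fabp5 from 135 to 209 (0.63, 0.46 to 0.81). Apoe stood at 49.5 and 108 CPM (1.13, 0.85 to 1.41), above the 34.3 and 66.7 of T cells, with intervals that did not overlap. The part of free RNA or doublets in this level was not tested. The lower member, Gpnmb, had 1 UMI in each library.

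Endothelial-like cells had 3 members at least 1.5-fold higher, against 6.17% of genes, and 0 lower, against 6.54%, or 2 and 0 of the 7 with 200 UMIs. Of the 3, Gpnmb, had 0 and 5 UMIs, which gives no ratio. Lgals3 went from 60.1 to 112 CPM (0.90, 0.53 to 1.28) and Abcg1 from 99.3 to 152 (0.62, 0.33 to 0.92). Fabp5 (0.57, 0.42 to 0.73) and Cd9 (0.57, 0.34 to 0.80) fell just short of the 1.5-fold line. In Kupffer-like cells, where 4 members had their highest level, the ratios of those members lay between 0.19 and 0.27. Apoe was at 7473 and 8856 CPM (0.24, 0.18 to 0.31), Abca1 at 550 and 661 (0.27, 0.03 to 0.51) and Lpl at 555 and 633 (0.19, -0.05 to 0.43). Trem2, with 23 and 21 UMIs, did not differ beyond counting error (-0.63, -1.56 to 0.28), nor did Fabp5 (-0.59, -1.19 to 0.01). Cd63, with 49 and 33 UMIs, was lower (-1.07, -1.76 to -0.41). In natural killer cells Fabp5 (-0.67) and Cd9 (-0.88) had intervals below 0, and Apoe (1.14) and Abca1 (1.07) above 0. In B cells Fabp5 (-1.18) and Lgals3 (-0.94) had intervals below 0, and 0 members above.

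Plasmacytoid dendritic cells (82 and 73 cells) had 9 members at least 1.5-fold higher in KD, against 2.57% of the 777 genes with 200 UMIs, and 0 lower, against 7.46%. Only Apoe and Lgals3 reached 200 UMIs there, and 1 of these 2 was higher. Apoe was at 222 and 927 CPM (2.06, 1.75 to 2.38) and Lgals3 at 216 and 294 (0.44, 0.07 to 0.82). Lpl, among the 9, had 0 and 15 UMIs, which gives no ratio. In T cells 5 members were higher, against 3.45% of genes, and 0 lower, against 2.39%. Of the 5 with 200 UMIs 2 were higher, Apoe (0.96, 0.81 to 1.10) and Abcg1 (0.65, 0.40 to 0.90). The Apoe level in T cells, as stated above, is not read as expression. In tumour or fibroblast-like cells 5 members were higher, against 4.67%, and 0 lower, against 12.5%. Of the 5 with 200 UMIs there 1 was higher, Apoe, from 202 to 477 CPM (1.24, 1.06 to 1.43), while Cd63, highest in this class, had 913 and 1281 CPM (0.49, 0.39 to 0.58).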

How the data were processed

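Per the labels and the methods, cells of each library were sequenced with the 10x Genomics 3′ v3.1 chemistry, and the submitters' notes name Cell Ranger 7.1.0, Seurat 5.1.0, R 4.4.1 and the build GRCm39. The deposited values were raw UMI counts per gene and barcode, in 1 filtered matrix per library, made by the authors with no normalization (67207234 Ctrl and 64444715 KD UMIs, at least 500 per barcode). Barcodes with 200 to 6000 genes, at most 30000 UMIs and at most 10% mitochondrial UMIs were kept. Seurat 5.3.0 (R 4.3.3) clustered both libraries together without integration, on 2000 variable genes that left out the members and the pathway lists, with 20 components and resolution 0.5, and macrophages were clustered again the same way. Cluster names needed 3 markers at a log2 ratio of 1 over the other cells (0.5 within macrophages) in 10% of cells. These naming rules were set after the clusters were seen, and names may differ from those of the authors. Doublets were kept in the main values, and Scrublet calls (scanpy 1.11.5), which removed 771 Ctrl and 830 KD cells, were an alternative.

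UMIs were summed per library and class with Python 3.11.15. Levels carry exact Poisson intervals, shares Clopper-Pearson intervals and ratios conditional binomial intervals (95%, scipy 1.17.1), which cover counting error only. Each group is 1 library, so no test was made and no p-value is given. Background percentages are over genes with at least 200 UMIs in both libraries together. For shares of cells, every cell was thinned to 1500 UMIs and shallower cells were left out, and a count of 0 is plotted at 3 UMIs. In lists, the 2 highest and 2 lowest genes were named, and Tyrobp, Syk and Apoc1 were added after their values were seen. Some genes that this rule names are not reported here. The members and lists were chosen with earlier results of these data known. The scripts were tested on simulated data.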

Additional observations from a re-analysis of the deposited data

Results flagged for a closer look

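Some members had a log2 ratio of KD over Ctrl below 0, with an interval wholly below 0, in a cell class or macrophage state, although macrophages as a whole were higher in KD. These differences between cell groups were not tested.

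In granulocytes, whose makeup differed between the libraries, this held for Abca1 (-0.73), Abcg1 (-0.63) and Cd9 (-0.42), all of which are expressed there. Fabp5 was lower in KD in T cells (-0.12), natural killer cells (-0.67) and B cells (-1.18). Cd9 was lower in natural killer cells (-0.88) and Lgals3 in B cells (-0.94) and conventional dendritic cells (-0.15). Cd63 was lower in Kupffer-like cells (-1.07), from 49 and 33 UMIs.

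Within macrophages the C1qc+ TAM-like cells had lower Fabp5 (-0.48), Abca1 (-0.46) and Lgals3 (-0.16) in KD. The Interferon TAM-like cells had lower Fabp5 (-0.42) and Abca1 (-0.87), and Abca1 was also lower in Vcan+ monocyte-like cells (-0.43).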

How the results depend on the processing

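The member counts, the median, the 10 ratios and the background shares in macrophages as a whole were recomputed under 16 alternatives, 2 of them chosen after seeing the data (counting the unnamed cluster 16 among macrophages, and leaving out the unnamed macrophage sub-clusters). The number of members at least 1.5-fold higher in KD ranged from 3, with an equal mix of sub-clusters, to 6, and 0 were lower throughout. The median log2 ratio of the members was 0.65 after thinning, 0.47 without sub-clusters mostly from 1 library and 0.36 with the equal mix. At resolution 1.0, 3 members had a log2 ratio above 0 in all but at most 1 sub-cluster. This count ranged up to 8 over 14 alternatives, since the single-cell gate and the equal mix give no such value. The matching share of all genes was computed for the main setting only (14.5%), so the other counts have no background. Of the single members, Fabp5 reversed to -0.055 with the equal mix. Trem2 ranged from 0.37 to 0.61, Apoe from 1.00 to 1.42, Gpnmb from 1.495 to 2.34 and Lpl from 0.65 to 1.34. The share of all genes at least 1.5-fold higher ranged from 2.71% with the equal mix to 7.98% with genes of at least 20 UMIs, and that of lower genes from 4.595% to 12.1% under the same settings. No paired analysis was possible because each group is 1 library and no test was run. The ratios within single states, the lists and the values per cell were computed in 1 way only. Low counts limit Gpnmb outside macrophages and 5 members, Trem2, Gpnmb, Fabp5, Cd9 and Cd63, in Kupffer-like cells.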
